A study of Mus musculus with 6 samples.

Results

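The genes described here belong to the ATF4 amino acid response and to protein synthesis from its products. They comprise 20 listed genes of the response, from the transcription factor ATF4 to the enzymes and stress regulators downstream of it, and 19 genes for cytosolic aminoacyl-tRNA synthetases, the enzymes that load amino acids onto transfer RNAs. The synthetases were found by symbol in the annotation of the array (Aars, Cars, Eprs, Farsa, Farsb, Gars, Hars, Iars, Kars, Lars, Mars1, Nars, Qars, Rars, Sars, Tars, Vars, Wars and Yars). All 39 genes were measured, out of 18193 genes with a probe set assigned to that gene alone. Each gene was represented by its probe set with the highest mean, and 7 of the 39 stand on probe sets of the _x_at or _s_at type, which can also bind transcripts of related sequence. Dars was not analysed here, and Tarsl2 was left out because its symbol did not match the search by symbol.

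Expression was measured on 6 Affymetrix mouse arrays of CD4 T cells, 3 from WT OT-II mice and 3 from SAP-deficient OT-II mice. OT-II is a transgenic T cell receptor that recognises an ovalbumin peptide, and it was carried by both groups. SAP, encoded by Sh2d1a, is an adaptor protein that relays signals from receptors of the SLAM family, and the comparison asks which transcripts of Tfh-like cells depend on it. In both groups, sorted naive cells (CD44 low, CD62L+, CD25-) were stimulated for 3.5 days with ovalbumin peptide on splenocytes without T cells whose division mitomycin C had blocked. The Tfh-like medium held IL-21 at 50 ng/ml and IL-6 at 100 ng/ml. It also held neutralising antibodies to TGF-β (20 µg/ml), to IL-4 (10 µg/ml), to IL-12 and to IFN-γ. The sources used here name neither the allele of the SAP deficiency nor the age of the mice, nor do they state whether the arrays of a group came from separate mice or cultures. P-values therefore reflect the array-to-array spread alone. That spread was not technical alone, as sex-linked transcripts differed between arrays of 1 genotype (below). As the cultures also held splenocytes, fewer cells of a type and less RNA per cell cannot be told apart.

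The targeted transcript separated the groups, with Sh2d1a between 8.52 and 9.50 on the WT arrays and between 4.10 and 5.47 on the SAP-deficient arrays (log2). T cell markers were high on every array, with a list mean between 11.47 and 11.83 over 10 genes. Arrays with the same replicate number, given in accession order, resembled each other across genotype: their correlation over all probe sets was 0.996 to 0.998, against 0.989 to 0.994 between arrays of 1 genotype. The labels state no such pairing. Xist and the Y-linked gene Eif2s3y also followed the number. Xist was at 12.50 on both first arrays, 8.21 and 8.19 on the second arrays, and 5.81 and 6.26 on the third arrays (WT, then SAP-deficient). Eif2s3y was at 3.54 and 2.91 on the first arrays, 9.96 and 9.98 on the second, and 9.80 and 9.76 on the third. Arrays of 1 genotype thus differed in sex-linked transcripts and were not all technical repeats of 1 RNA sample. Below, a pair means the WT and the SAP-deficient array of equal number.

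ATF4 is made when the initiation factor eIF2 is phosphorylated, which lowers protein synthesis in general but lets ribosomes reach the ATF4 reading frame. One of the kinases that do this is GCN2, encoded by Eif2ak4, which senses transfer RNAs that carry no amino acid. ATF4 then pairs with C/EBP proteins on composite DNA elements and raises genes for amino acid synthesis, amino acid uptake and tRNA charging. In activated T cells this programme is known for supplying serine, glycine, asparagine and one-carbon units during growth and division. Because ATF4 is controlled largely by translation, its messenger RNA level does not report its activity.

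The composite element is shown here because it is the DNA sequence through which ATF4 and C/EBP proteins act on their targets. RefSeq promoter windows (GRCm38.p6, 250 bases before to 50 after a start) were found for 31 of the 39 genes, all but Cth, Cars, Hars, Lars, Nars, Rars, Vars and Wars. They were searched for TGATGNAA on both strands, which reads TTNCATCA on the other strand. The element occurred for 10 of the 31 genes (32.3%), against 1219 of 27025 genes with a window (4.51%). It was found for 5 of 12 synthetase genes and 5 of 19 listed genes. Several listed genes are known for such an element, so this share describes how the genes were picked as much as their promoters. Matches upstream of a start follow for both gene groups, each written 5′ to 3′ on the gene's strand with the element in capitals.
Asns: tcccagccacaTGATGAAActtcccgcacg
Chac1: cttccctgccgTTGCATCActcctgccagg
Atf3: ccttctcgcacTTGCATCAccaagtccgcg
Vldlr: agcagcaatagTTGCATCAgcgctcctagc
Gars: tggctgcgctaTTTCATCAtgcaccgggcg
Tars: caggagtcccgTTGCATCAgctggtt
The Asns stretch lies at chr6:7693214-7693243 on the minus strand, with its element at bases -23 to -16 from the start. Those of Chac1 and Atf3 lie at chr2:119351038-119351067 (plus strand) and chr1:191183425-191183454 (minus strand), with elements starting at -193 and -110. Vldlr carries its match at chr19:27216809-27216838 (plus strand). The synthetase matches shown lie at chr6:55037960-55037989 for Gars (plus strand) and chr15:11399659-11399684 for Tars (minus strand). Trib3, Iars and Yars held a match after the start. A match of letters is a description and not evidence of binding.

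None of the 39 genes differed detectably between WT and SAP-deficient cells. The changes, SAP-deficient minus WT, ran from -0.23 for Ddit3 to 0.09 for Eif2ak4 on the log2 scale, with a median of -0.038 against 0.0078 over all genes. Lower values prevailed slightly: 27 of the 39 genes were lower on average, against 46.7% of all genes. Limma called 0 of 18193 genes (0%) at an adjusted p under 0.05 in the fit on genotype alone, and every member had an adjusted p of 1.00. Sh2d1a, at -4.31, also missed that level, with an adjusted p of 0.0501 in the same fit (limma). No member had an unadjusted p under 0.05 in that fit, against 1.31% of all genes (0.748% lower and 0.566% higher). On no member did the groups separate, while 2.94% of all genes were lower and 2.38% higher on every SAP-deficient array than on every WT array. The median shifted with the arrays used: it was 0.050 without WT replicate 2 and 0.068 without SAP-deficient replicate 3. Removing 1 array leaves its partner in, so differences between pairs enter these and all such values below. In the fit on pairs 1 and 2 alone the median was 0.0013.

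**Figure D1:**
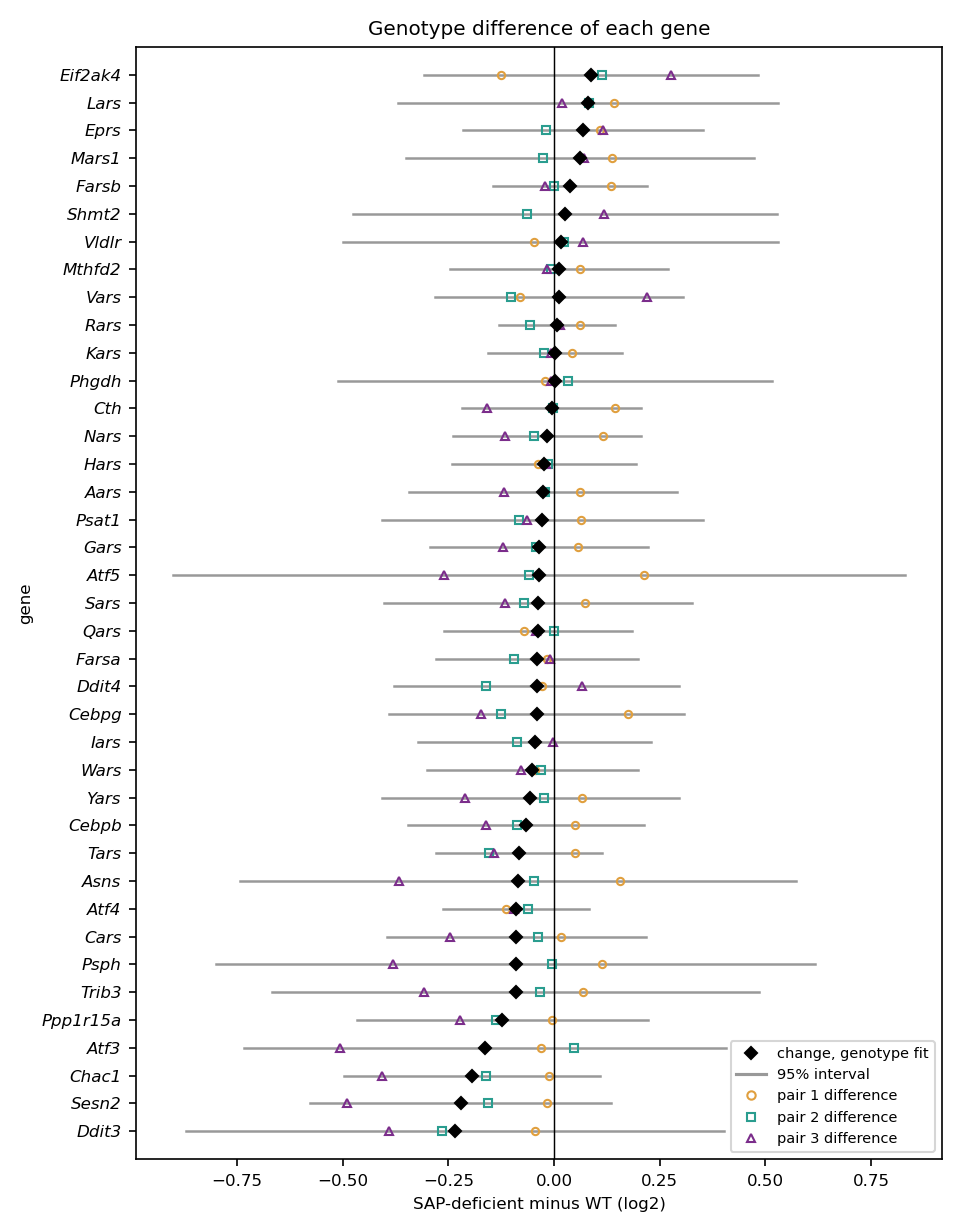
Change of each gene between genotypes (SAP-deficient minus WT, log2). Diamonds show the estimate of the fit on genotype alone with its 95% interval as a grey line, and open symbols the difference within each pair of arrays. Every interval includes 0, and the estimates run from -0.23 (Ddit3) to 0.09 (Eif2ak4).

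Within pairs, 4 listed genes were lower in SAP-deficient cells at an unadjusted p under 0.05 when the pairs entered the fit as a block: Ddit3, Atf4, Chac1 and Sesn2. No member was higher at that level. Of all genes, 6.10% passed that level, 2.61% lower and 3.49% higher. Their unadjusted p-values with the block were 0.0075, 0.0305, 0.0316 and 0.0408. The smallest adjusted p among the 4 was 0.722 (limma), so none was called, and Sh2d1a was the only gene called with the block (0.00550% of genes). In the block without the third pair, Ddit3 was the only member left at that level. Its change there was -0.16, with an unadjusted p of 0.0312 and an adjusted p of 0.699 (limma). Atf4, Chac1 and Sesn2 were at -0.087, -0.086 and -0.088 and did not pass it. In all 3 pairs, 9 of the 39 genes were lower (13.1% of all genes) and 1, Lars, was higher (15.6% of all genes). The other lower genes in this count were Ppp1r15a, Farsa, Hars, Iars and Wars.

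Atf4, the central transcription factor, was at 12.92, 13.10 and 12.97 on WT replicates 1 to 3 and at 12.80, 13.04 and 12.88 on the SAP-deficient arrays. The groups overlapped, and the second array was the highest of each. The change was -0.09 ± 0.07 (SE; 95% interval -0.26 to 0.08), with -0.11, -0.06 and -0.09 within the pairs and an unadjusted p of 0.0305 and adjusted p of 0.800 with the block (limma). A second bright Atf4 probe set gave -0.12 ± 0.12.

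Ddit3 encodes CHOP, a C/EBP-family factor raised by ATF4 during prolonged stress. Its WT levels were 10.49, 11.45 and 10.83 and its SAP-deficient levels 10.44, 11.19 and 10.44. The second arrays stood well above the others in both genotypes, by more than the difference between genotypes. The change was -0.23 ± 0.28 (95% interval -0.87 to 0.40), and the differences within pairs were -0.05, -0.26 and -0.39. Without WT replicate 2 the change was 0.03. A second, dimmer Ddit3 probe set changed by -0.09 ± 0.22, with -0.23, 0.02 and -0.06 within pairs, so its third-pair difference was smaller and its second pair was not lower.

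The other regulators overlapped in the same way. Atf3, an ATF-family factor that answers many acute stresses, was at 8.19, 8.51 and 9.14 in WT and 8.16, 8.56 and 8.63 in SAP-deficient cells. WT replicate 3 alone was high, and without it the change of -0.16 ± 0.25 became 0.10. Atf5, an ATF4-related factor also controlled by translation, was at 8.02, 9.11 and 8.06 in WT and 8.24, 9.05 and 7.80 in SAP-deficient cells. Its second arrays lay about 1 log2 unit above the rest in both genotypes, and the change was -0.04 ± 0.38. Trib3, a pseudokinase that restrains ATF4, changed by -0.09 ± 0.25. The C/EBP partners Cebpb and Cebpg changed by -0.07 ± 0.12 and -0.04 ± 0.15. A dimmer Cebpg probe set changed by -0.30 ± 0.15, with -0.39, -0.07 and -0.43 within pairs. Its unadjusted p with the block was 0.0198 (limma). Another Cebpg probe set changed by 0.0039 ± 0.14, so the probe sets of this gene disagreed. By the probe sets that stand for the genes, all 7 regulators were lower on average, none by more than its standard error except Atf4.

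**Figure D2:**
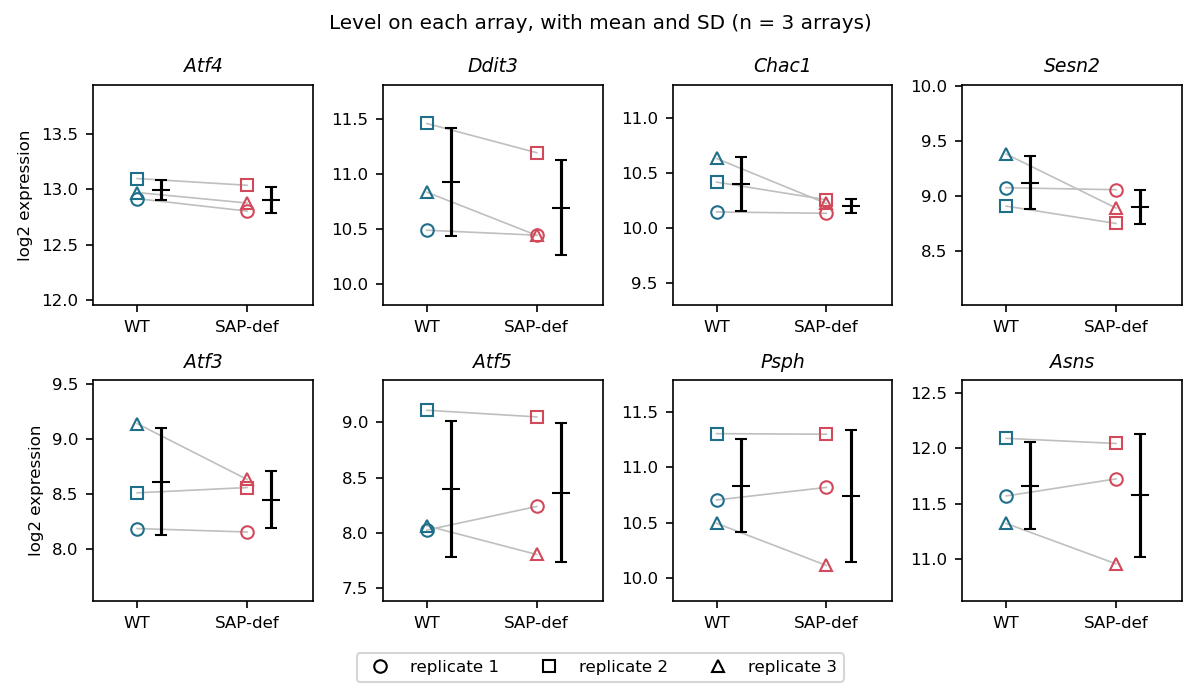
Log2 expression of 8 genes on each array. Open symbols are arrays, with shape giving the replicate number, grey lines join arrays of equal number, and bars show mean ± SD (n = 3 arrays per genotype, SAP-def meaning SAP-deficient). The second arrays are highest in both genotypes for Ddit3, Atf5, Psph and Asns, and the third WT array is highest for Atf3, Chac1 and Sesn2.

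At the level of eIF2, Eif2ak4 was at 8.21, 7.91 and 7.61 in WT and 8.09, 8.02 and 7.89 in SAP-deficient cells. It had the highest change of all members, 0.09 ± 0.17, with -0.13, 0.11 and 0.28 within pairs. The first array was the highest and the third the lowest in both genotypes, and the groups overlapped. Ppp1r15a, the stress-induced subunit that directs phosphatase to eIF2 and ends the response, changed by -0.12 ± 0.15, with -0.01, -0.14 and -0.22 within pairs.

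Sesn2 and Ddit4 restrain the growth kinase complex mTORC1, the former by sensing leucine. Sesn2 was at 9.08, 8.91 and 9.38 in WT and 9.06, 8.75 and 8.89 in SAP-deficient cells. WT replicate 3 was the highest array, and the change was -0.22 ± 0.15 (95% interval -0.58 to 0.13), with -0.02, -0.16 and -0.49 within pairs. A second Sesn2 probe set changed by 0.04 ± 0.12, with 0.18, -0.17 and 0.11 within pairs, so the 2 probe sets disagreed. Ddit4 changed by -0.04 ± 0.15 and Vldlr, a lipoprotein receptor gene raised by ATF4, by 0.02 ± 0.22.

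Among enzymes, Chac1, which degrades glutathione, was at 10.15, 10.42 and 10.63 in WT and 10.13, 10.26 and 10.22 in SAP-deficient cells. The third WT array was highest, the first pair was nearly equal, and the change was -0.19 ± 0.13 (95% interval -0.50 to 0.11). Within pairs the differences were -0.01, -0.16 and -0.41, so the third pair was the largest for Chac1, Sesn2 and Ddit3 alike. Without WT replicate 1 the change of Chac1 was -0.32 with an unadjusted p of 0.0297 and an adjusted p of 1.00 (limma). Without WT replicate 3 it was -0.077, and in the block without the third pair -0.086.

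The biosynthetic enzymes showed small changes around a wide spread. Asns, which makes asparagine, was at 11.57, 12.09 and 11.32 in WT and 11.72, 12.04 and 10.95 in SAP-deficient cells, a change of -0.09 ± 0.29. Psph, the last enzyme of serine synthesis, was at 10.71, 11.31 and 10.49 in WT and 10.82, 11.30 and 10.11 in SAP-deficient cells, a change of -0.09 ± 0.31. Both were highest on the second and lowest on the third array of each genotype, and both changed sign without WT replicate 2 (0.13 and 0.14) or SAP-deficient replicate 3 (0.22 for each). Phgdh and Psat1, the earlier steps of serine synthesis, changed by 0.0018 ± 0.22 and -0.03 ± 0.16. Shmt2 and Mthfd2, which move one-carbon units in mitochondria, changed by 0.03 ± 0.22 and 0.01 ± 0.11, and Cth, the last step toward cysteine, by -0.0059 ± 0.09. With the pairs as a block, the 95% intervals of Phgdh, Psat1, Psph, Shmt2 and Mthfd2 lay between -0.28 (Psph) and 0.13 (Shmt2).

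The 19 cytosolic synthetases stayed within a narrow band: changes ran from -0.09 (Cars) to 0.08 (Lars), with a median of -0.027. The median changed sign without WT replicate 2 (0.049) or SAP-deficient replicate 3 (0.047), was 0.0029 in the block without the third pair, and was -0.00072 with all probe sets of each gene averaged. Of them 7 were higher and 12 lower, and 0 had an unadjusted p under 0.05 in either fit. Their 95% intervals lay between -0.41 and 0.53 in the genotype fit and between -0.24 and 0.19 with the pairs as a block. Lars, which charges leucine, was at 11.30, 11.49 and 10.91 in WT and 11.44, 11.57 and 10.93 in SAP-deficient cells. It was the only synthetase higher in all 3 pairs (0.14, 0.08 and 0.02), and its change was 0.08 ± 0.19. The value was -0.080 without WT replicate 3 and -0.05 without SAP-deficient replicate 2, removals that unbalance the pairs. Eprs, which charges glutamate and proline, was at 11.58, 11.72 and 11.31 in WT and 11.69, 11.70 and 11.42 in SAP-deficient cells. Its change was 0.07 ± 0.12, but further Eprs probe sets ran from -0.14 to -0.01. Mars1, for methionine, was at 11.23, 11.27 and 10.76 in WT and 11.37, 11.25 and 10.83 in SAP-deficient cells, a change of 0.06 ± 0.18.

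The lower synthetases moved as little as the higher ones. After Cars, for cysteine, the lowest were Tars for threonine (-0.08 ± 0.09), Yars for tyrosine (-0.06 ± 0.15), Wars for tryptophan (-0.05 ± 0.11) and Iars for isoleucine (-0.05 ± 0.12). Aars for alanine (-0.03), Gars for glycine (-0.04), Hars for histidine (-0.02), Nars for asparagine (-0.02), Qars for glutamine (-0.04), Sars for serine (-0.04) and Farsa, the alpha subunit for phenylalanine (-0.04), lay closer to 0. Farsb, its beta subunit (0.04), Vars for valine (0.01), Rars for arginine (0.0067) and Kars for lysine (0.0031) lay at or above it. Rars was the steadiest member, with means of its 3 pairs within 0.035 of each other.

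Differences between the pairs were larger than those between genotypes for most of these genes. The highest and lowest pair means lay further apart than any difference within a pair for 36 of the 39 genes, against 56.3% of all genes; Chac1, Sesn2 and Rars were the exceptions. For the median member, 91.4% of the variance over the 6 arrays lay between pairs and 1.66% between genotypes, against 66.9% and 6.36% for the median of all genes. The pairs were recognised by their likeness over all probe sets, so these shares are given as a description, without a test. The pairs also differed in Xist and Eif2s3y, as given above, and the part of sex in the differences between pairs was not tested.

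The order of the pairs was shared in part. By pair means, the second pair was highest for 24 of the 39 genes (31.9% of all genes) and the third lowest for 29 (35.1%). The second array was the highest in both genotypes for 22 of the 39 genes (56.4%), against 21.3% of all genes, and the third array the lowest in both for 27 (69.2%), against 22.6%. Both held together for 18 members (46.2%), against 12.2% of all genes: Trib3, Cebpb, Asns, Psat1, Phgdh, Psph, Shmt2 and Mthfd2, and the synthetases Aars, Eprs, Farsb, Gars, Hars, Lars, Nars, Sars, Wars and Yars. The members and the pattern were chosen with these data in view, so the counts are no test either.

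The size of this spread differed between the roles. Atf5 had the widest, 1.15 log2 units or 2.21-fold between its highest and lowest pair means, followed by Psph (2.00-fold), Asns (1.91-fold), Ddit3 (1.81-fold), Trib3 (1.70-fold) and Phgdh (1.68-fold). Shmt2 and Psat1 spanned 1.63-fold and 1.45-fold. Among synthetases Lars (1.53-fold), Mars1 (1.42-fold) and Sars (1.41-fold) spanned most, and 10 of the listed genes but 2 of the synthetases had a span of 0.5 log2 units or more. Across all genes 15.1% had such a span.

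**Figure D3:**
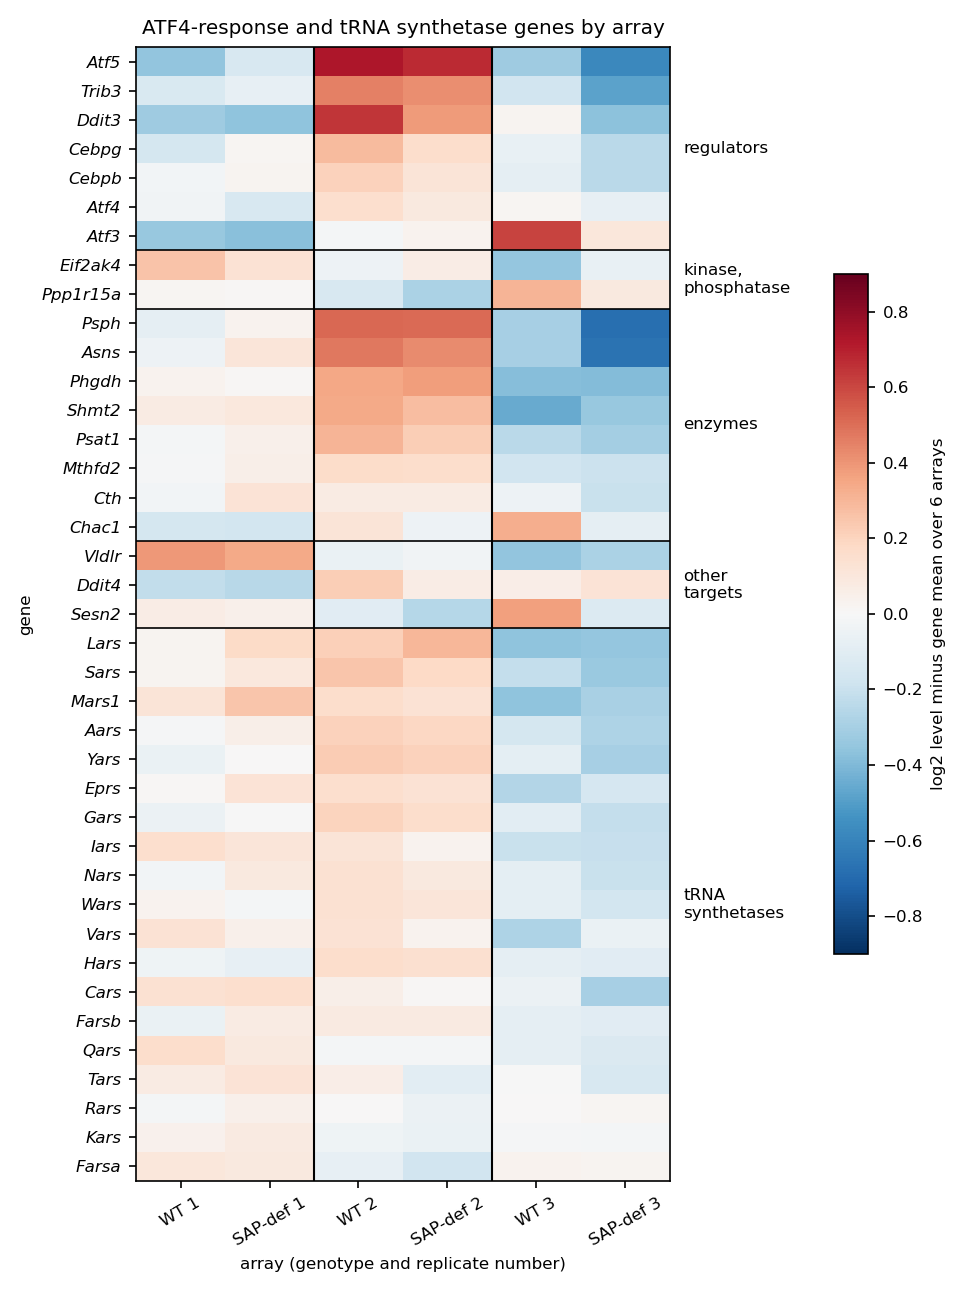
Log2 level of each of the 39 genes on each array minus its mean over the 6 arrays. Columns are arrays ordered by replicate number (SAP-def meaning SAP-deficient), and rows are genes grouped by role. Most enzymes and synthetases are high on the second and low on the third arrays of both genotypes, while Atf3 and Ppp1r15a are highest on the third arrays.

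Other members departed from that order. The highest mean was in the first pair for 11 of the 39 genes (30.8% of all genes), 9 of them synthetases, and in the third pair for 4 (37.2% of all genes). Atf3 and Ppp1r15a were highest on the third array of both genotypes, and Chac1 and Sesn2 on the third WT array. Eif2ak4 and Vldlr were highest on the first arrays and lowest on the third, as were the synthetases Cars, Iars, Qars and Tars. Farsa and Kars were highest on the first and lowest on the second arrays of both genotypes. Mars1, Vars and Rars had their highest mean in the first pair. Atf4 itself spanned only 0.21 between pairs, with the second highest and the first lowest. Genes with and without the composite element were found on both sides: the pair with the highest mean was the second for 5 of the 10 genes with a match and for 14 of the 21 without.

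Other genes of the pathway were examined on 5 lists, which shared the order by pair to unequal degrees. Of 66 measured genes, none was called. Of 14 genes that act upstream of ATF4, such as the eIF2 kinases and the subunits of eIF2 and its exchange factor, 5 were higher and 9 lower, with a median of -0.03. The second pair was highest for 8 of them and the third lowest for 5, the latter near the share of all genes (35.1%). Eif2ak2, the kinase that senses double-stranded RNA, changed by -0.28 ± 0.24, with -0.14, -0.23 and -0.48 within pairs. With the block its unadjusted p was 0.0267 and its adjusted p 0.782 (limma). Its probe set was dim, with a mean of 5.93 against a median probe-set mean of 5.75. Eif2ak1 was lower on every SAP-deficient array, by -0.06 ± 0.11.

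Of 21 other ATF4-linked genes, 9 were higher and 12 lower (median -0.02). Aldh18a1, the first enzyme of proline synthesis, was lower in every pair (-0.16, -0.10 and -0.17), and the oxidase gene Ero1a higher in every pair (0.14, 0.07 and 0.12). Their unadjusted p-values were 0.0131 and 0.0178 with the block, and their adjusted p-values 0.733 and 0.763 (limma). The second pair was highest for 13 of the 21 and the third lowest for 17. The widest spans, picked after their values were seen, were those of Pck2 (9.92, 10.49 and 9.04 as means of pairs 1 to 3), Gpt2 (8.87, 9.56 and 8.22) and the cystine transporter gene Slc7a11 (7.32, 7.49 and 6.20).

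Of 12 one-carbon and nucleotide genes, 7 were higher and 5 lower (median 0.03). The second pair was highest for 5 of them and the third lowest for 7. Cbs, which makes cystathionine from homocysteine, was higher on every SAP-deficient array, at 6.65, 6.56 and 6.66 in WT and 6.97, 6.84 and 6.87 in SAP-deficient cells. Its change of 0.27 ± 0.12 had an unadjusted p of 0.0499 and an adjusted p of 1.00 (limma), and it was the only gene of the 5 lists with an unadjusted p under 0.05 in the genotype fit. Aldh1l2, a mitochondrial folate enzyme also picked after its values were seen, had pair means of 7.12, 8.30 and 6.44 and changed by -0.17 ± 0.57. Of 16 mitochondrial synthetases 10 were higher and 6 lower (median 0.04), with Aars2 higher on every SAP-deficient array by 0.09 ± 0.12. The first pair was highest for 8 of the 16, the second for 7, and the third was lowest for 11. The 3 scaffold genes of the multi-synthetase complex, Aimp1, Aimp2 and Eef1e1, changed by 0.05, 0.02 and -0.02.

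Some marker lists also differed between the pairs. T cell markers were lowest in the second pair for 7 of 10 genes and myeloid markers for 9 of 10, against 39.7% of all genes. Most members were highest in that pair. Cell-cycle genes differed from the members: WT replicate 3 was low (median deviation -0.61) and SAP-deficient replicate 3 was not (0.17), and pairs held 27.6% of the variance of the median gene, against 66.9% over all genes. That share was 53.6% for B cell and 58.3% for MHC class II genes. Markers of handling stress, such as Fos and Fosb, were highest in the third pair for 6 of 9 genes, as were Atf3 and Ppp1r15a. Within the third pair, where Ddit3, Chac1 and Sesn2 differed most, the median difference was -0.24 over 9 B cell genes, -0.40 over 7 MHC class II genes, -0.22 over 9 handling-stress genes and 0.73 over 14 cell-cycle genes. By genotype, all 14 cell-cycle genes were higher in SAP-deficient cells on average (median 0.11), though their medians within pairs 1 and 2 were -0.19 and -0.06. All 9 B cell genes were lower (median -0.16), as were 6 of 7 MHC class II genes (median -0.17). T cell markers were higher for 7 and lower for 3, myeloid markers for 5 and 5, and handling-stress markers for 2 and 7. No gene of these lists was called. The mean level of the B cell list ran from 5.79 to 6.01 on WT and from 5.54 to 5.84 on SAP-deficient arrays. That of MHC class II ran from 7.76 to 8.04 and from 7.55 to 7.96, that of cell-cycle genes from 9.52 to 10.21 and from 10.01 to 10.18. For handling stress it ran from 9.10 to 9.66 and from 9.09 to 9.42, and for the myeloid list from 6.11 to 6.47 and from 5.98 to 6.59. RMA values have no true 0, and 4 of the 9 B cell genes lay under the median probe-set mean of 5.75. The part of these markers in the results above was not tested.

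**Figure D4:**
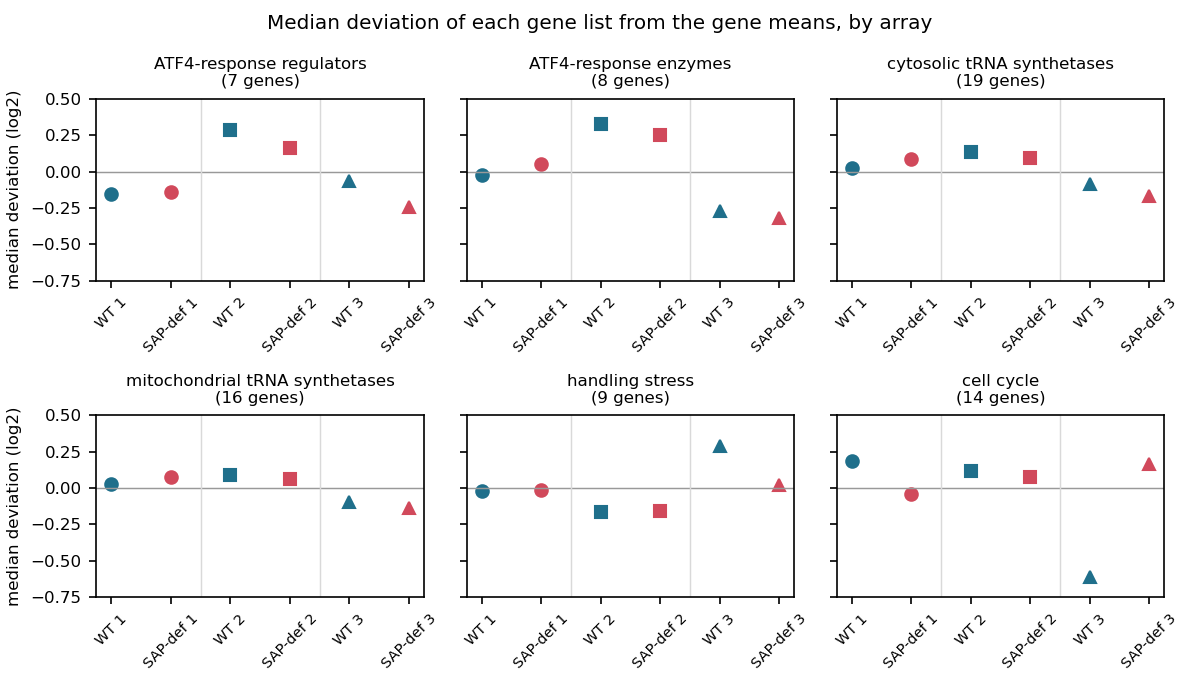
Median deviation of each gene list from the gene means (log2), by array, for 3 groups of members and 3 other lists. Blue symbols are WT and red symbols SAP-deficient (SAP-def) arrays, with shape giving the replicate number. Regulators, enzymes and synthetases are highest on the second arrays, where handling-stress genes are lowest, and cell-cycle genes are lowest on the third WT array (-0.61).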

How the data were processed

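The authors deposited log2 levels for 45101 probe sets on 6 arrays, made with Affymetrix Expression Console and RMA, per the submitters' processing notes. RMA corrects background, equalises the arrays' distributions and summarises probes, so it compresses changes of dim probe sets and hides changes in total RNA. Versions and build are not given in the sources at hand. After 64 control probe sets were left out, 45037 were fitted with limma 3.58.1 (R 4.3.3; lmFit on genotype alone, eBayes with an intensity trend). By the annotation, 34945 probe sets name 1 gene, 932 name several and 9160 are unnamed. Of those with 1 gene, 34741 matched the RefSeq gene table. P-values were adjusted over 18193 genes by the Benjamini-Hochberg method. Levels are not compared between probe sets. Arrays of equal replicate number deviated together from their genotype means (r 0.52, 0.73 and 0.60), so a fit with these pairs as a block was an alternative. Those of unequal number did not (-0.52 to -0.10). Deviations cancel over the arrays of a genotype, so positive values at equal numbers push the others down, and this contrast is no separate support. The labels state no pairing. On simulated data for this comparison (18193 genes), the genotype fit recovered 2.69% of changes of 0.5, 66.6% of 1 and 97.3% of 2 log2 units. With the block it recovered 87.5% of changes of 0.5. The simulation took its pair differences and residual spread from the fit with the block, so that fit was correct by design. It also planted changes of all these sizes in many genes at once, which makes the adjusted cutoff easier to pass. These shares are therefore not the power in the measured data, where few genes were called.

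The members, lists and alternatives were chosen with earlier results of these data known. Values on every array are given for Atf4, Ddit3, members with an unadjusted p under 0.05 in either fit, the 4 highest and 4 lowest changes, and the 4 largest SDs over the arrays. In the pathway lists, genes with an unadjusted p under 0.05 in either fit are named; others were added after their values were seen. A promoter match in the counts is not reported here.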

Additional observations from a re-analysis of the deposited data

How the results depend on the processing

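The count of called members was 0 under all 15 alternatives run, with limma. Sh2d1a alone was called with the pairs as a replicate block, with robust variance, and without _x_at and _s_at probe sets (1 gene each). Leaving out 1 array gave 0 to 1 called genes, and the block without the third pair, added after seeing the data, gave 36, none of them a member. Removing 1 array unbalances the pairs, so differences between pairs enter the value. It moved Ddit3 from -0.48 to 0.031, Eif2ak4 from -0.063 to 0.24, Lars from -0.080 to 0.27, Eprs from -0.046 to 0.16, Mars1 from -0.10 to 0.22, Atf3 from -0.38 to 0.10, Atf5 from -0.38 to 0.32, Psph from -0.37 to 0.22 and Asns from -0.32 to 0.22. In the block without the third pair Eif2ak4 was at -0.0068, Atf3 at 0.0084, Atf5 at 0.077, Psph at 0.054 and Asns at 0.054. Eprs was at -0.041 as the mean of all its probe sets. The cause was not tested. Atf4 (-0.16 to -0.038), Chac1 (-0.32 to -0.077) and Sesn2 (-0.33 to -0.092) kept their negative sign over the removals and in every other alternative, but not their size. The synthetase median ran from -0.09 to 0.05 over the removals. Of 44 further probe sets of members, 22 had a change of the other sign than the probe set used. All 39 members lay above the median probe-set mean.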
